A study of Danio rerio with 9 samples.

Results

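The genes described here mark radial glia and neural progenitors of the zebrafish brain: sox2, sox19a, sox9a, sox9b, her6, slc1a3a, vim and gfap. They were followed through every probe set that the platform annotation maps to one of these 8 symbols, which gave 11 probe sets of the 15502 tested, or 8 of the 8793 genes named on the array. The sox2 gene had 3 probe sets, sox9b had 2 and each of the other 6 genes had 1. No member probe set carried a second symbol or a suffix for possible cross-hybridization.

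Radial glia line the brain ventricles and persist in adult fish, where they act as neural stem cells and take on tasks that astrocytes perform in mammals. Transcription factors of the SOXB1 group (sox2, sox19a) keep cells in a progenitor state, SOXE factors (sox9a, sox9b) specify and maintain glia, and the hairy-related repressor her6 holds back neuronal differentiation. The remaining members are products of glial cells: slc1a3a encodes a glial glutamate transporter, and vim and gfap encode intermediate filament proteins. All are known mainly from glia and progenitors rather than from mature neurons.

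RNA came from cells of dissociated adult zebrafish brain that were sorted by fluorescent tracer and labelled by the submitters as neurons. The regenerated group held neurons that regrew an axon after complete transection of the spinal cord at vertebra 8, and the nonregenerated group held neurons of transected fish that did not. In these fish Fluororuby, a red tracer carried back along axons, was given with the transection, and Fluoroemerald, a green one, was injected 4 mm beyond the lesion 3 weeks later. Sorting followed after 1 more week. The unlesioned group came from uncut fish, sorted 1 week after Fluororuby was given at the same vertebra, so time since the first tracer differed from that in the lesioned groups. Each group had 3 arrays, labelled as biological replicates, and so small a number limits the precision. The sources used here do not say whether arrays came from separate fish or from pools, nor whether regenerated and nonregenerated cells came from the same fish, so p-values measure only the spread between these samples. Strain, sex and age beyond adult are likewise not given in these sources.

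Values are log2 expression values minus the median of that probe set over the 9 arrays. They compare arrays and give no absolute level, so expression of one gene cannot be set against that of another, and a marker cannot be said to be present or absent. On the first principal component, which held 33.4% of the variance, the regenerated arrays lay on one side and the other 6 on the other. The SD over probe sets was 0.594 to 0.650 in the regenerated arrays, against 0.394 to 0.427 in the nonregenerated and 0.349 to 0.430 in the unlesioned arrays. Centring over 9 arrays widens the spread of a group that differs from the other 6, so these SDs cannot tell noise or quality from a group difference. The median reading of 22 negative control probe sets was 0.48, 0.04 and 0.28 in regenerated arrays 1, 2 and 3. It lay between -0.16 and 0.00 in the nonregenerated and between -0.13 and 0.08 in the unlesioned arrays.

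The transcription factor genes were lowest in the regenerated arrays, and the glial product genes were not uniformly so. In 8 of the 11 probe sets, those of sox2, sox19a, sox9a, sox9b and her6, all 3 regenerated arrays lay below all 6 others. The single probe sets of slc1a3a, vim and gfap did not separate in this way. The mean over the 11 probe sets was -1.33, -2.03 and -1.57 in regenerated arrays 1, 2 and 3. It was 0.00, 0.33 and 0.73 in nonregenerated arrays 1, 2 and 3, and 0.10, 0.30 and 0.18 in the unlesioned arrays. In bulk samples such as these, fewer cells of a type and less RNA per cell cannot be told apart.

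**Figure D1:**
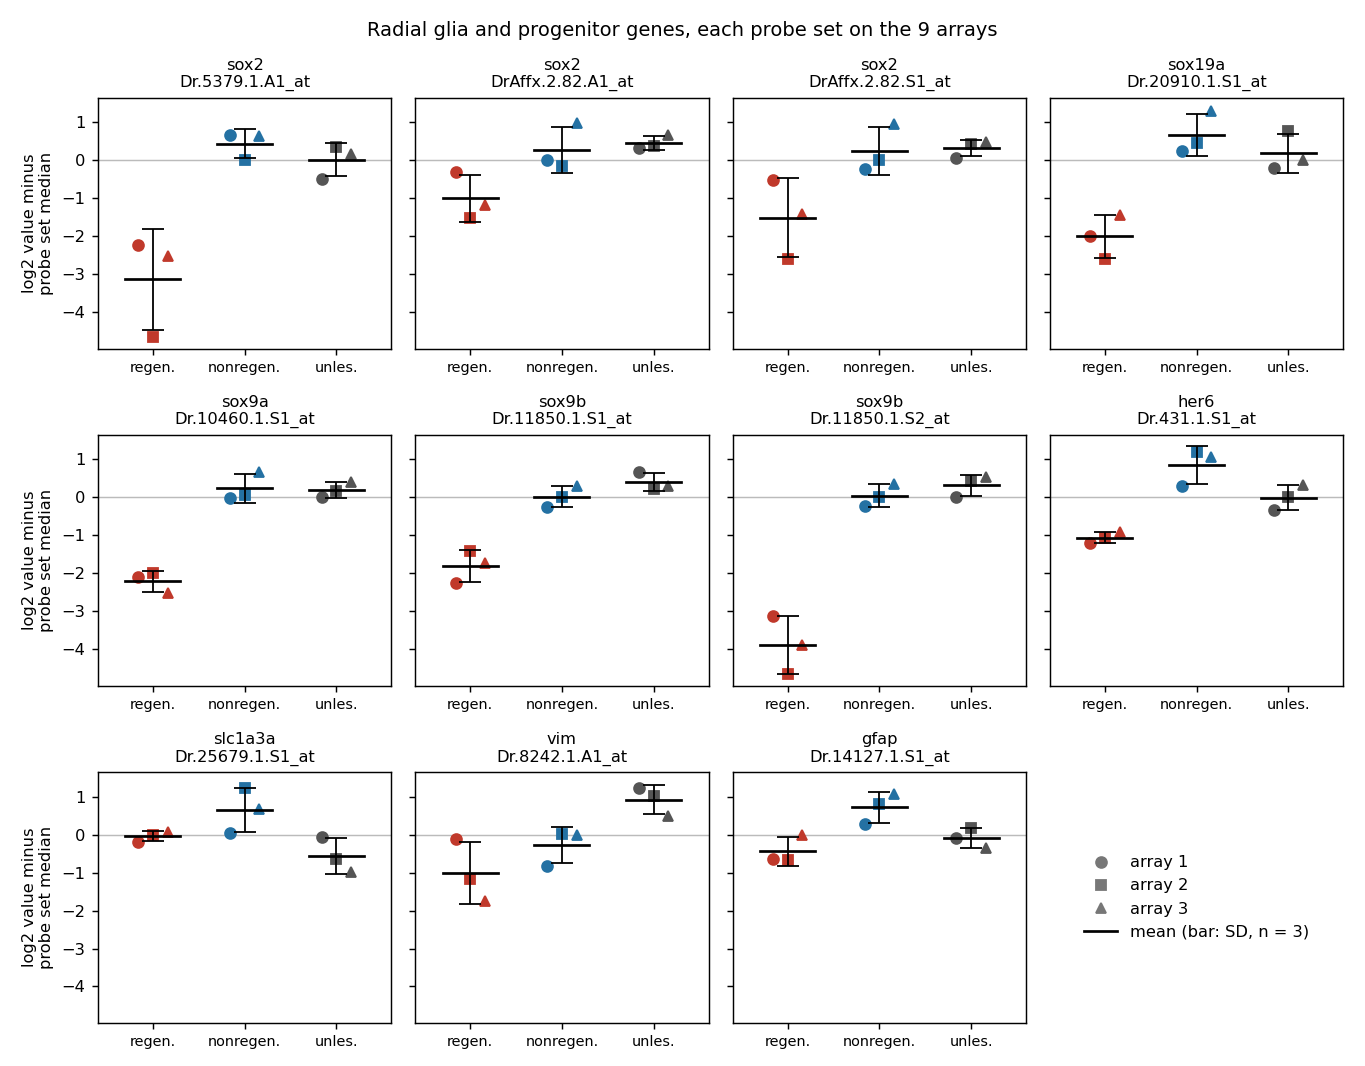
Log2 value minus the probe set median (vertical axis) of each of the 11 probe sets in the regenerated, nonregenerated and unlesioned arrays. Symbols are single arrays, and the line with its bar is the mean ± SD (n = 3). The regenerated points of the sox2, sox19a, sox9a, sox9b and her6 panels all lie below the other 6, whereas those of slc1a3a, vim and gfap lie among or beside them.

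Against nonregenerated neurons, 6 of the 11 member probe sets fell in regenerated neurons and none rose, at a Benjamini-Hochberg adjusted p under 0.05 in a limma fit over all 15502 probe sets. They belong to sox9b (both probe sets), sox2 (1 of 3), sox19a, sox9a and her6. Over the whole array 2.45% of probe sets were called in this comparison, 1.41% lower and 1.05% higher. At an unadjusted p under 0.05 there were 9 of the 11, against 16.2% of all probe sets. The median change of the 11 was -1.82 on the log2 scale, and that of all probe sets was 0.06. Groups did not overlap in 9 of the 11, all with the regenerated arrays lower, against 9.24% of all probe sets. The members were chosen with results of this comparison known, so these counts describe them and do not test them as a set. When the negative control median entered the fit as a covariate, 3 of the 6 calls remained, those of sox9b (Dr.11850.1.S2_at), sox9a and sox2 (Dr.5379.1.A1_at). That median was higher in regenerated arrays 1 and 3 than in any other array, so the covariate partly follows the group. A call lost with it therefore cannot tell background from group.

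The SOXE gene sox9b was low in all regenerated arrays by both of its probe sets, to different depths. The probe set Dr.11850.1.S2_at read -3.11, -4.66 and -3.89 in the regenerated arrays, against -0.23, 0.00 and 0.37 in the nonregenerated and 0.01, 0.42 and 0.53 in the unlesioned arrays. Regenerated neurons were thus far below both other groups, with more than 2 log2 units between the nearest arrays. It changed by -3.93 ± 0.36 (SE) against nonregenerated neurons (adjusted p = 0.00141). Only 2 of the 15502 probe sets had a lower change. Against unlesioned neurons the change was -4.21 ± 0.36, or 18.5-fold lower (adjusted p = 0.00278), the lowest of all probe sets. Quantile normalization gives the centred values the same distribution in every array, and so narrows the regenerated arrays, whose spread was widest. After it these changes were -2.70 and -3.01.

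The other sox9b probe set, Dr.11850.1.S1_at, read -2.25, -1.42 and -1.73 in the regenerated arrays, against -0.24, 0.00 and 0.30 in the nonregenerated and 0.67, 0.23 and 0.30 in the unlesioned arrays. It separated the same groups by a smaller distance, at -1.82 ± 0.26 against nonregenerated (adjusted p = 0.00822) and -2.20 ± 0.26 against unlesioned neurons (adjusted p = 0.00576). The first of these calls was lost with regenerated array 2 as the only regenerated array, at -1.44, and both were lost with the negative control covariate, at -1.60 and -1.99. The 2 probe sets differed by 0.86, 3.24 and 2.15 in regenerated arrays 1, 2 and 3, and by at most 0.66 in any other array. They ranked the regenerated arrays differently: array 2 was lowest for one and highest for the other.

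The second SOXE gene, sox9a, read -2.09, -2.00 and -2.52 in the regenerated arrays, against -0.01, 0.05 and 0.67 in the nonregenerated and 0.00, 0.18 and 0.41 in the unlesioned arrays. The regenerated arrays were close to each other and well below the rest, and the other groups overlapped. The change was -2.44 ± 0.24 against nonregenerated neurons (adjusted p = 0.00201) and -2.40 ± 0.24 against unlesioned neurons (adjusted p = 0.00334). Its calls in both comparisons held in all 19 alternatives, as did those of the first sox9b probe set.

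The progenitor factor sox2 was measured by 3 probe sets, which agreed in direction in both comparisons of regenerated neurons and differed in size. Dr.5379.1.A1_at read -2.23, -4.65 and -2.52 in the regenerated arrays, against 0.66, 0.00 and 0.65 in the nonregenerated and -0.48, 0.36 and 0.17 in the unlesioned arrays. All regenerated arrays were low, array 2 by the widest margin. This probe set changed by -3.57 ± 0.57 against nonregenerated neurons, 11.9-fold lower (adjusted p = 0.0128), and by -3.15 ± 0.57 against unlesioned neurons (adjusted p = 0.0295). The sizes moved with array 2 and the scaling: without regenerated array 2 they were -2.81 and -2.39, with it as the only regenerated array -5.09 and -4.67, and after quantile normalization -2.66 and -2.21. The first call was lost without nonregenerated array 3 (-3.46, with adjusted p-values of 0.00462 to 0.0553 over all alternatives) and with only the 6 arrays of those groups in the fit. The second was lost without any one of the 3 unlesioned arrays (-3.40, -2.98 and -3.07 without arrays 1, 2 and 3), with only the 6 arrays compared and with the negative control covariate (-4.12, and -4.59 against nonregenerated neurons).

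The other sox2 probe sets, DrAffx.2.82.A1_at and DrAffx.2.82.S1_at, share a stem in their names and differ in the letter that Affymetrix uses for the orientation of the target. The letter A also stands in the names of Dr.5379.1.A1_at and of the vim probe set. DrAffx.2.82.S1_at read -0.53, -2.59 and -1.40 in the regenerated arrays, against -0.23, 0.00 and 0.95 in the nonregenerated and 0.07, 0.43 and 0.48 in the unlesioned arrays. DrAffx.2.82.A1_at read -0.30, -1.51 and -1.17 in the regenerated arrays, against 0.00, -0.16 and 0.98 in the nonregenerated and 0.31, 0.37 and 0.67 in the unlesioned arrays. In both the regenerated arrays were lowest without overlap, with array 1 near the other groups. Neither passed the test. Against nonregenerated neurons the differences were -1.75 ± 0.49 and -1.27 ± 0.37 for S1 and A1 (adjusted p = 0.108 and 0.123). Against unlesioned neurons they were -1.83 ± 0.49 and -1.45 ± 0.37 (adjusted p = 0.111 and 0.0968). Without regenerated array 1, the highest of the regenerated arrays in both probe sets, both were called in both comparisons. As the mean of its 3 probe sets sox2 was called against nonregenerated (-2.20 ± 0.44, adjusted p = 0.0317 over 8793 genes) and against unlesioned neurons (-2.14 ± 0.44, adjusted p = 0.0393). That mean takes in both letters, and whether every probe set reads the sox2 mRNA was not checked.

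The other SOXB1 member, sox19a, read -1.98, -2.59 and -1.44 in the regenerated arrays, against 0.23, 0.46 and 1.30 in the nonregenerated and -0.21, 0.76 and 0.00 in the unlesioned arrays. Every regenerated array was at least 1 log2 unit below every other array. The change was -2.67 ± 0.39 against nonregenerated neurons (adjusted p = 0.00931) and -2.19 ± 0.39 against unlesioned neurons (adjusted p = 0.0284). The first call was lost only with the negative control covariate, at -3.08. The second was lost in 8 of 19 alternatives. Quantile normalization took it to -1.63, with the highest adjusted p of these (0.134). The others included leaving out regenerated array 1 (-2.20), regenerated array 2 (-1.90) or unlesioned array 1, 2 or 3 (-2.39, -1.90 and -2.28).

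The hairy-related repressor her6, an effector of Notch signalling, read -1.20, -1.07 and -0.92 in the regenerated arrays, against 0.29, 1.20 and 1.07 in the nonregenerated and -0.34, 0.00 and 0.33 in the unlesioned arrays. The regenerated arrays lay within 0.3 log2 units of each other, and all of them below the other 6. Unlesioned and nonregenerated arrays overlapped. It fell by 1.92 on the log2 scale against nonregenerated neurons (SE 0.27, adjusted p = 0.00851). That call was lost with regenerated array 2 as the only regenerated array (-1.92) and with the negative control covariate (-1.91). Against unlesioned neurons the difference was -1.06 ± 0.27, with no overlap between the arrays, and did not pass (adjusted p = 0.1004).

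The 3 glial product genes were not called against nonregenerated neurons. The gfap probe set read -0.65, -0.68 and 0.00 in the regenerated arrays, against 0.27, 0.80 and 1.08 in the nonregenerated and -0.09, 0.18 and -0.35 in the unlesioned arrays. The nonregenerated arrays were highest, and regenerated and unlesioned arrays overlapped. The difference was -1.16 ± 0.28 against nonregenerated neurons (adjusted p = 0.0656), and -0.36 ± 0.28 against unlesioned neurons with a 95% interval of -0.99 to 0.27 (adjusted p = 0.584). The first passed at -1.28 with the 75th percentile of every array subtracted and at -1.38 without regenerated array 3.

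The transporter gene slc1a3a read -0.19, 0.00 and 0.07 in the regenerated arrays, against 0.05, 1.23 and 0.66 in the nonregenerated and -0.06, -0.63 and -0.99 in the unlesioned arrays. The regenerated arrays lay between the other groups and overlapped both. It was the only member whose estimate was above 0 against unlesioned neurons, at 0.52 ± 0.32 (95% interval -0.21 to 1.25, adjusted p = 0.489). Against nonregenerated neurons it was -0.69 ± 0.32 (95% interval -1.42 to 0.04, adjusted p = 0.333).

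The vim probe set read -0.13, -1.17 and -1.75 in the regenerated arrays, against -0.84, 0.00 and 0.00 in the nonregenerated and 1.24, 1.02 and 0.49 in the unlesioned arrays. Here the unlesioned arrays were the high ones, and regenerated and nonregenerated arrays overlapped. The difference was -1.93 ± 0.42 against unlesioned neurons (adjusted p = 0.0524 over all probe sets). In a separate limma fit over the 8793 named genes the difference was the same and passed (SE 0.41, adjusted p = 0.0457). Without regenerated array 1 it was -2.38 and passed, as it did with the 75th percentile of every array subtracted and with array weights. Against nonregenerated neurons it was -0.74 ± 0.42, with a 95% interval of -1.68 to 0.21 (adjusted p = 0.415).

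**Figure D2:**
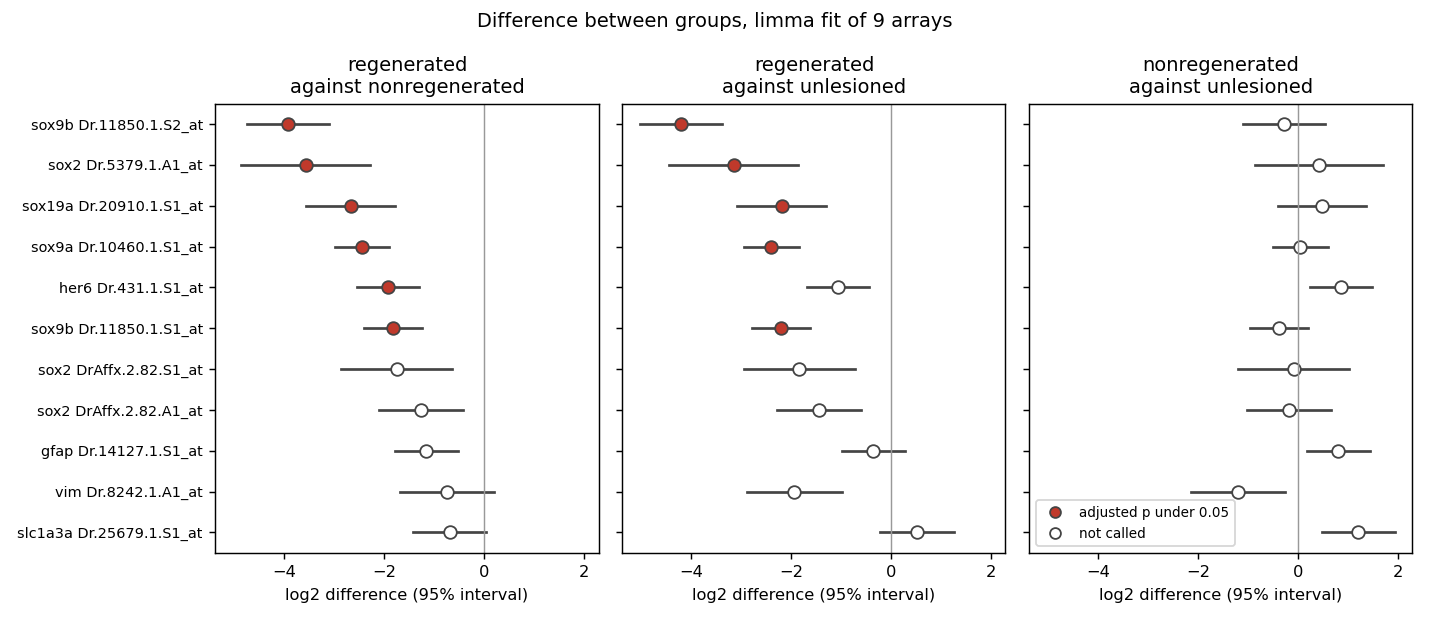
Log2 difference (horizontal axis) of each member probe set in the 3 comparisons, with 95% intervals from the limma fit of 9 arrays, and filled circles where the adjusted p was under 0.05. The intervals of sox9b, sox2, sox19a, sox9a and her6 lie below 0 in both comparisons of regenerated neurons, and no probe set was called between nonregenerated and unlesioned neurons.

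Against unlesioned neurons, 5 of the 11 member probe sets fell in regenerated neurons and none rose: both of sox9b, 1 of sox2, and those of sox19a and sox9a. Over the whole array 2.22% of probe sets were called, 1.35% lower and 0.871% higher. At an unadjusted p under 0.05 there were again 9 of the 11, against 14.9% of all probe sets. The median change was -1.93 for the members and 0.05 for all probe sets, and groups did not overlap, with regenerated arrays lower, in 9 of the 11 against 9.13% of all probe sets. Leaving out unlesioned array 1, 2 or 3 gave 3 calls in each case, those of sox9a and both sox9b probe sets. With the negative control covariate there were 2 calls, those of sox9a and of Dr.11850.1.S2_at. Both comparisons of regenerated neurons use the same 3 regenerated arrays, so they are not independent.

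**Figure D3:**
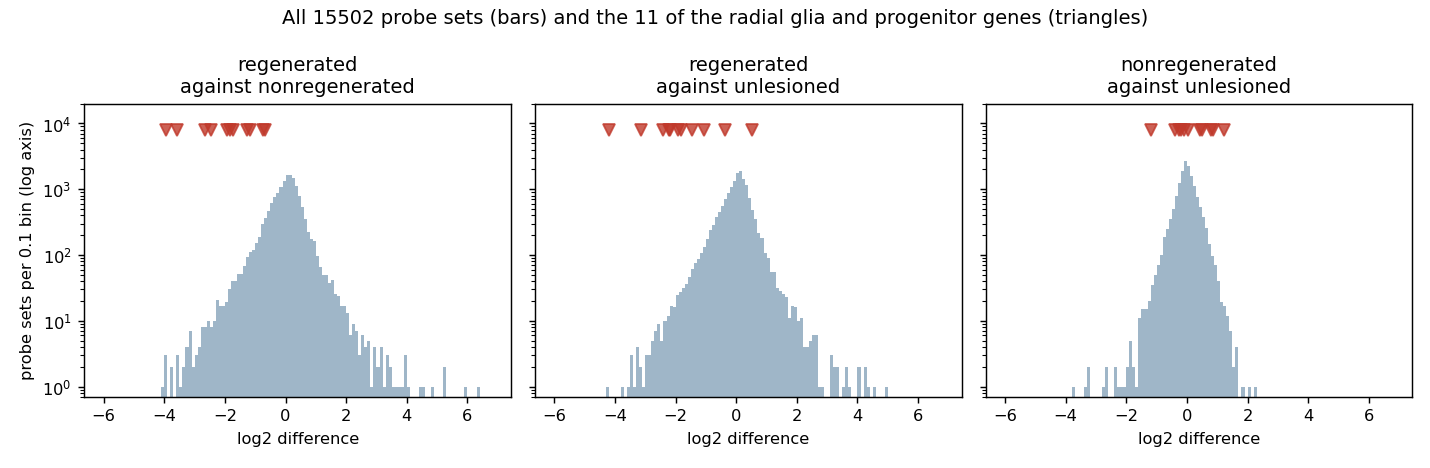
Number of probe sets per bin of 0.1 log2 units (vertical log axis) against the log2 difference in each comparison, with the 11 member probe sets as triangles at arbitrary height. All 11 lie below 0 in regenerated against nonregenerated neurons and 10 of 11 in regenerated against unlesioned neurons, while they fall on both sides of 0 in nonregenerated against unlesioned neurons.

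Between nonregenerated and unlesioned neurons no member probe set was called, nor was any of the 15502 (0% called by limma, also with robust moderation). An unadjusted p under 0.05 was reached by 4 of the 11 members and by 790 probe sets (5.1%). The 4 were slc1a3a at 1.21 ± 0.32, her6 at 0.86 ± 0.27, gfap at 0.80 ± 0.28 and vim at -1.19 ± 0.42, with adjusted p-values from 0.763 to 0.875. Arrays did not overlap for slc1a3a and gfap, with nonregenerated arrays higher, nor for vim, with nonregenerated arrays lower. Over all probe sets 5.24% were higher and 5.9% lower without overlap. The estimates for the SOX genes ran from -0.38 ± 0.26 for sox9b (Dr.11850.1.S1_at) to 0.48 ± 0.39 for sox19a, and each 95% interval included 0. For sox9a the interval was -0.50 to 0.59.

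Other SOX genes of the SOXB and SOXE groups were mostly lower in regenerated than in nonregenerated neurons. Of 7 measured, 4 fell, none rose and all 7 estimates were below 0 (median -1.15, against 0.06 over all 8793 genes). Over all genes 1.71% were called lower and 1.25% higher. Counts of genes here and below use the mean of each gene's probe sets. The oligodendrocyte and neural crest factor sox10 fell by 3.15 on the log2 scale (SE 0.39, adjusted p = 0.00394). The SOXB1 gene sox3 changed by -1.39 ± 0.26, the SOXB2 gene sox21b by -1.16 ± 0.16 and the SOXE gene sox8b by -0.97 ± 0.21, with adjusted p-values from 0.00585 to 0.0433. Against unlesioned neurons, where 1.35% of all genes were called lower and 0.91% higher, 1 of the 7, sox10, was called (-2.97 ± 0.39).

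Further radial glia and astroglia genes gave 4 falls and no rise among 22 measured, with 21 estimates below 0 and a median of -0.98. The sodium pump gene atp1a1b changed by -2.43 ± 0.35, the water channel gene aqp1a.1 by -2.20 ± 0.43, the matrix proteoglycan gene ncana by -1.85 ± 0.36 and the membrane protein gene gpm6ab by -1.32 ± 0.29. Their adjusted p-values ran from 0.00695 to 0.0432. Against unlesioned neurons 3 of the 22 fell, with a median of -0.92, namely atp1a1b (-1.98 ± 0.35), gpm6ab (-1.39 ± 0.29) and cyp19a1b (-2.14 ± 0.34, adjusted p = 0.0147). The last, which encodes the brain aromatase of radial glia, was named after its values were seen. It had -0.27 ± 0.34 between regenerated and nonregenerated neurons and -1.87 ± 0.34 between nonregenerated and unlesioned neurons, neither called (adjusted p = 0.730 and 0.466).

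Of 22 measured genes of the Notch pathway, through which neighbouring cells keep progenitors undifferentiated, 2 fell and none rose (median -0.53). The receptor gene notch3 changed by -2.57 ± 0.37 (adjusted p = 0.00695), and lfng, whose product modifies Notch receptors, by -1.45 ± 0.30 (adjusted p = 0.0339). The target gene her4.5 at -2.00 ± 0.51 and the receptor gene notch1a at -1.15 ± 0.30 did not pass (adjusted p = 0.0728 and 0.0741). Against unlesioned neurons notch3 alone was called, at -2.04 ± 0.37.

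Genes of progenitors and neurogenesis gave 2 falls and 1 rise among 28 measured, with 20 estimates below 0 and a median of -0.22. The transcription factor genes nfixb and sox4a changed by -1.77 ± 0.26 and -1.82 ± 0.37, and msi2b, of the Musashi family of RNA-binding proteins, by 1.31 ± 0.28 (adjusted p = 0.00695, 0.0329 and 0.0400). The replication gene mcm5 was not called at -1.48 ± 0.35 (adjusted p = 0.0566), and had -0.42 ± 0.35 against unlesioned neurons. Other cell cycle genes of the list were nearer 0 against nonregenerated neurons and not called. They were ccnd1 (-0.79), pcna (-0.72), mcm2 (-0.37), top2a (-0.22), mki67 (-0.18) and cdk1 (-0.04). The same 3 genes nfixb, sox4a and msi2b were called against unlesioned neurons, at -2.18, -2.17 and 1.33. There 22 of the 28 estimates were below 0, with a median of -0.38.

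Markers of other cell types moved in the same arrays, and their part in the results for the members was not tested. Of 7 measured oligodendrocyte lineage genes 4 fell against nonregenerated neurons (sox10, which stands in 2 of the lists, gpm6bb, olig2 and nkx2.2a), with a median of -1.85. The 3 not called were cldnk at -1.34 and the myelin genes mbpb at -0.26 and mbpa at 0.28. The array means of this list ran from -2.23 to -1.30 in the regenerated, from 0.10 to 0.29 in the nonregenerated and from 0.17 to 0.62 in the unlesioned arrays. Of 13 neuronal markers 4 rose, gng3 by 1.36 and atp1a3b by 3.48 among them, with array means of -0.02 to 0.39, -0.88 to -0.31 and 0.12 to 0.20 in the same order of groups. Of the 9 not called, tubb5 at -0.88 and elavl3 at -0.03 were below 0. The elavl3 gene also stands in the list of progenitors and neurogenesis. Of 6 Purkinje neuron markers 4 rose (aldoca, pvalb7, pcp4l1 and ca8), with array means of 2.55 to 3.40, -0.99 to -0.41 and -0.28 to 1.28. The 2 not called were calb2b at 0.66 and pcp4a at -0.0036. The pcp4a gene read 0.02, -0.17 and -1.49 in the regenerated arrays, below the 0.43, 0.63 and 0.32 of the unlesioned arrays. The same 4 oligodendrocyte and 4 Purkinje genes were called in the same direction against unlesioned neurons. So were 2 of the 4 neuronal genes, gng3 (0.76 ± 0.16) and atp1a3b (2.61 ± 0.44). Over all 13 neuronal markers the median against unlesioned neurons was 0.01, with 6 estimates below 0 and the lowest at -1.67. In nonregenerated against unlesioned neurons all 13 estimates were below 0, with a median of -0.78 and none called.

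Among lists for microglia and leukocytes (12 genes), endothelium and pericytes (4), ependyma (4) and erythroid cells (4), limma called no gene against nonregenerated neurons. At an unadjusted p under 0.05 there were 2 erythroid genes and none of the other 3 lists. Against unlesioned neurons 1 gene of the 4 lists was called, apoeb of the microglia and leukocyte list, an apolipoprotein E gene (0.95 ± 0.20, adjusted p = 0.0405). Of the 12 genes of that list 2 had estimates below 0, the lowest lyz at -2.81, and the median was 0.31. The lyz gene, which enters the list means below, read 4.27, -0.01 and 3.74 in unlesioned arrays 1, 2 and 3. In nonregenerated against unlesioned neurons 2 of the 12 were below 0, with a median of 0.54 and none called. The array means of the microglia and leukocyte list were 0.03 to 0.18 in the regenerated, -0.08 to 0.47 in the nonregenerated and -0.22 to 0.00 in the unlesioned arrays. Those of the ependyma list were 0.05 to 0.31, -0.24 to 0.14 and -0.22 to 0.22, and those of the endothelial list 0.03 to 2.47, -0.15 to 0.34 and -0.17 to 0.27 in the same order. Those of the erythroid list were -0.05 to 0.84, -1.29 to -0.89 and 0.57 to 2.34. All 4 erythroid estimates were below 0 against unlesioned neurons, with medians of -2.68 in nonregenerated and -1.03 in regenerated neurons. An unadjusted limma p under 0.05 was reached by 4 and 2 of them, and none was called. The endothelial mean of 2.47 was that of regenerated array 1 alone, where kdrl, cldn5a and tie1 read 4.75, 2.48 and 1.82. In regenerated arrays 2 and 3 kdrl read 0.85 and 0.00, cldn5a -0.09 and -0.33, and tie1 0.04 and 0.43.

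**Figure D4:**
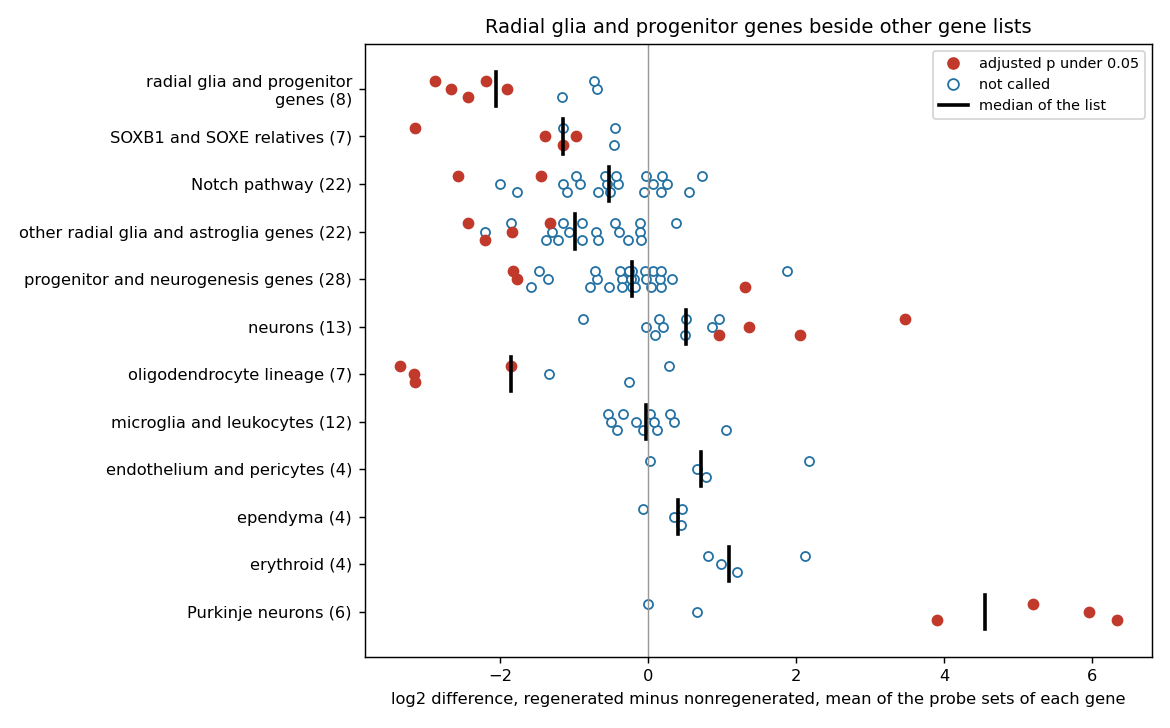
Log2 difference of regenerated minus nonregenerated neurons (horizontal axis) for each measured gene of the 8 radial glia and progenitor genes and of the other lists, 1 point a gene, with filled points where the adjusted p was under 0.05 and a bar at each list's median. The medians of the SOXB and SOXE relatives, the other radial glia genes and the oligodendrocyte lineage genes lie at -1.15, -0.98 and -1.85, and that of the neuronal markers at 0.51.

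Patterns over the 9 arrays were compared by the root mean square difference of log2 values, as a description, for each member called in at least 1 comparison when averaged over its probe sets. The closest pairs that such a member formed with another of the 8 genes were sox9a with sox9b (0.45) and sox2 with sox19a (0.46), followed by her6 with gfap (0.47). The nearest gene outside the members was atp1a1b for sox2 (0.29), followed by the versican gene vcanb (0.30) and notch3 (0.35). For sox19a the nearest were viml, a vimentin-like gene (0.37), the aggrecan gene acanb (0.39) and lemd1 (0.39).

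The viml probe set changed by -2.39 ± 0.31 against nonregenerated neurons (adjusted p = 0.00456) and by -2.26 ± 0.31 against unlesioned neurons, where vim itself had -0.74 and -1.93. For sox9a the nearest were the cytokinesis gene ect2 (0.28), the cadherin gene cdh18a (0.33) and the mitochondrial carrier gene slc25a48 (0.36). For sox9b they were tnr (0.54), which encodes the matrix protein tenascin-R, gpm6bb (0.55) and bmp3 (0.57). For her6 they were laptm4b (0.35), mycb (0.38) and scamp2 (0.38). For vim they were cnksr2b (0.41), caska (0.46) and snx15 (0.47), which read highest in the unlesioned arrays, as vim did.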

How the data were processed

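Total RNA from each of the 9 samples underwent whole-transcriptome amplification (Ovation Pico) and biotin labelling before hybridization to Affymetrix 3' IVT arrays, per the labels' protocols. The deposited log2 values come from RMA as the authors ran it, per the submitters' processing notes. Its version and any genome build are not given in the sources used here. Each probe set had a median of 0 over the arrays (tolerance 0.0001). The step that centred them is likewise not given, and no level or signal over background can be had.

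Of 15617 probe sets 115 controls were left out. The platform annotation gave 1 symbol for 10795 of the 15502 tested, several for 135 and none for 4572. The gene identifiers of 10711 were found in the RefSeq table (GRCz12tu, used for names only), which replaced 1 symbol. No coordinates or sequences are printed. Group means of all 9 arrays were fitted with limma 3.58.1 (R 4.3.3; 6 residual and 3.16 prior degrees of freedom). P-values are two-sided, adjusted by Benjamini-Hochberg over all probe sets, or over 8793 genes where probe sets were averaged, and called under 0.05. Errors are standard errors of the fit, which takes a common spread per probe set for all groups. Member SDs differed between groups in both directions. For regenerated, nonregenerated and unlesioned arrays they were 1.32, 0.38 and 0.44 in sox2 (Dr.5379.1.A1_at) and 0.14, 0.49 and 0.33 in her6. The fit was tested on simulated arrays.

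All member probe sets are named. From each list the text took up to 4 genes of smallest p in regenerated against nonregenerated neurons, and for each called member the 3 genes of nearest pattern. The members, lists, rules and alternatives were chosen with earlier results of these data known. Alternatives covered scaling, array weights, robust moderation, the arrays fitted, leaving out single arrays, the replicate number as a block, the median of 22 negative controls (sequences outside the zebrafish genome) as a covariate, averaged probe sets and thresholds. Figures were drawn with matplotlib 3.10.9.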

Additional observations from a re-analysis of the deposited data

How the results depend on the processing

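In the 19 alternatives run for each member probe set, no sign changed in either comparison of regenerated neurons. Calls were lost in 7 of 209 values against nonregenerated and 14 of 209 against unlesioned neurons, and gained in 7 and 9. The 209 values cover all 11 probe sets. Losses were possible only for the 6 and 5 called probe sets, and gains only for the 5 and 6 not called. The count of 6 members lower against nonregenerated neurons was 5 to 8 when 1 array was left out and 3 with the negative control covariate. The count of 5 against unlesioned neurons was 3 to 7 when 1 array was left out, 2 with the covariate, 3 with only the 2 groups compared and 3 at an adjusted p under 0.01. Over all probe sets the 380 calls against nonregenerated neurons became 176 after quantile normalization, 224 with only the 2 groups compared, 183 with the covariate, 131 at an adjusted p under 0.01 and 181 to 572 without 1 array (181 and 197 without nonregenerated arrays 2 and 3, 572 without regenerated array 1). The 344 against unlesioned neurons became 96, 158, 130 and 44 under the same settings, 199 with averaged probe sets and 58 to 418 without 1 array (137 and 218 without regenerated arrays 2 and 3, 220 and 228 without nonregenerated arrays 2 and 3, and 173, 107 and 58 without unlesioned arrays 1, 2 and 3). With regenerated array 2 alone its group was assumed to vary like the others. Between nonregenerated and unlesioned neurons the 0 calls became 1 without unlesioned array 2. Some of these settings used fewer arrays or a stricter threshold, and quantile normalization imposed the same spread on all arrays. The cause of the moves was not tested.

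Subtracting the 75th percentile moved the median change by -0.12 and -0.11 in the comparisons of regenerated neurons and the share of calls that were higher to 27.2% and 26.0%, against 42.6% and 39.2%. The covariate gave 60.1% and 54.6%. Between nonregenerated and unlesioned neurons the sign of uncalled estimates near 0 turned for sox2 and sox9a. For DrAffx.2.82.A1_at the estimate ran from -0.53 to 0.035 without 1 array, and was 0.053 as the gene mean. For DrAffx.2.82.S1_at it ran from -0.44 to 0.15, and was 0.053 as the gene mean. For sox9a it ran from -0.17 to 0.17.

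Replicate numbers are shared across groups in the labels, but the labels do not say that they pair the samples. Of 9 correlations between the deviations of same-numbered arrays 2 were over 0.1 (range -0.19 to 0.26), and an array correlated best with its own number in 5 of 18 cases. With the replicate number as a block 280 and 193 probe sets were called in the comparisons of regenerated neurons, with 6 and 5 members lower, as without it.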
